A study of Zygosaccharomyces parabailii with 12 samples.

Results

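The genes described here act in 3 linked routes of the hybrid yeast Zygosaccharomyces parabailii: the use of sulfur for methionine and cysteine, the transfer of single carbons on folate, and the building of purines. They are 9 of the 10085 genes counted, from 5 loci. In the count table they carry the locus tags BZL39_E01670 and BZL39_M04240 for MET13, BZL39_D04010 and BZL39_L05220 for MET17, BZL39_A08910 and BZL39_B08930 for SSU1, BZL39_H05860 for SHM2, and BZL39_C01780 and BZL39_K01700 for ADE6. They are written here without the shared prefix and with the letter of the parent, as in E01670_A. An A gene is nearly identical to that of Zygosaccharomyces bailii sensu stricto, and a B gene comes from the other, more diverged parent. Genes of one locus from different parents are called homeologs. The members were picked by name with earlier results of these libraries known, among them the lactic acid responses and the homeolog ratios. Their levels, responses and ratios are therefore given as a description, without a test.

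In yeast, sulfate taken up from the medium is reduced to sulfite and then to sulfide. MET17 encodes O-acetylhomoserine sulfhydrylase, which joins sulfide to a carbon backbone and so makes homocysteine, while SSU1 encodes a plasma membrane pump that exports sulfite. SHM2 encodes the cytosolic serine hydroxymethyltransferase, which moves a carbon from serine onto tetrahydrofolate, and MET13 encodes a methylenetetrahydrofolate reductase, which commits that carbon to the conversion of homocysteine into methionine. Folate-bound carbons also enter the purine ring, and ADE6 encodes the phosphoribosylformylglycinamidine synthase of that pathway. These roles were established in Saccharomyces cerevisiae and are carried over here by gene name.

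RNA was sequenced from strain ATCC60483, grown in batch bioreactors on Verduyn medium with glucose at pH 3 and with a limited oxygen supply. The control cultures received no lactic acid, and the treated cultures received 40 g of lactic acid per liter. Both were sampled at 18 h, in exponential growth, and at 42 h, after the diauxic shift, with 3 libraries in each of the 4 groups. Triplicate samples came from the fermentation, and no source used here states that they were separate cultures, so the spread measured between libraries may be technical.

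Control replicate 2 at 18 h held 4606 counts and was left out, which left 2 control libraries at 18 h and 11 libraries in all. These held 8979873 to 17565769 counts, with a median of 13289386. Levels are given as CPM, the count of a gene scaled to a common library size, after adjustment by TMM factors (trimmed mean of M values), which correct for the make-up of each library. Mitochondrial genes took 0.932 to 1.38% of the counts in control and 2.75 to 2.80% in lactic acid at 18 h, and 1.61 to 2.39% and 3.31 to 4.66% at 42 h. Their part in the results was not tested. The response at 18 h also varied with coding length, with a median log2 fold change of −0.90 over the longest 10% of the genes and 0.56 over the shortest 10%, and −0.37 and 0.05 at 42 h. Some values with this trend removed are given beside the members. Log2 fold changes come from edgeR's quasi-likelihood model of the 4 groups with an approximate standard error (SE), and a gene was called changed at a Benjamini-Hochberg adjusted p under 0.05 with a change of at least 1 on the log2 scale in either direction. Only genes outside the 9 members are reported with p-values.

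All 9 members passed the filter on low counts, with the group means between 10.2 and 1175 CPM. In lactic acid at 18 h, 6 members met the thresholds downward and none upward, and 3 met neither. Over the 9683 genes tested, 24.9% were called at 18 h, 20.7% downward and 4.25% upward. At 42 h, 2 members met the thresholds upward, 2 downward and 5 neither, where 17% of all genes were called, 7.05% upward and 9.9% downward. The median log2 fold change of the members was −1.50 at 18 h, against 0.07 over all genes, and 0.06 at 42 h, against −0.06. These counts follow from how the members were chosen, and nothing is read from them.

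**Figure D1:**
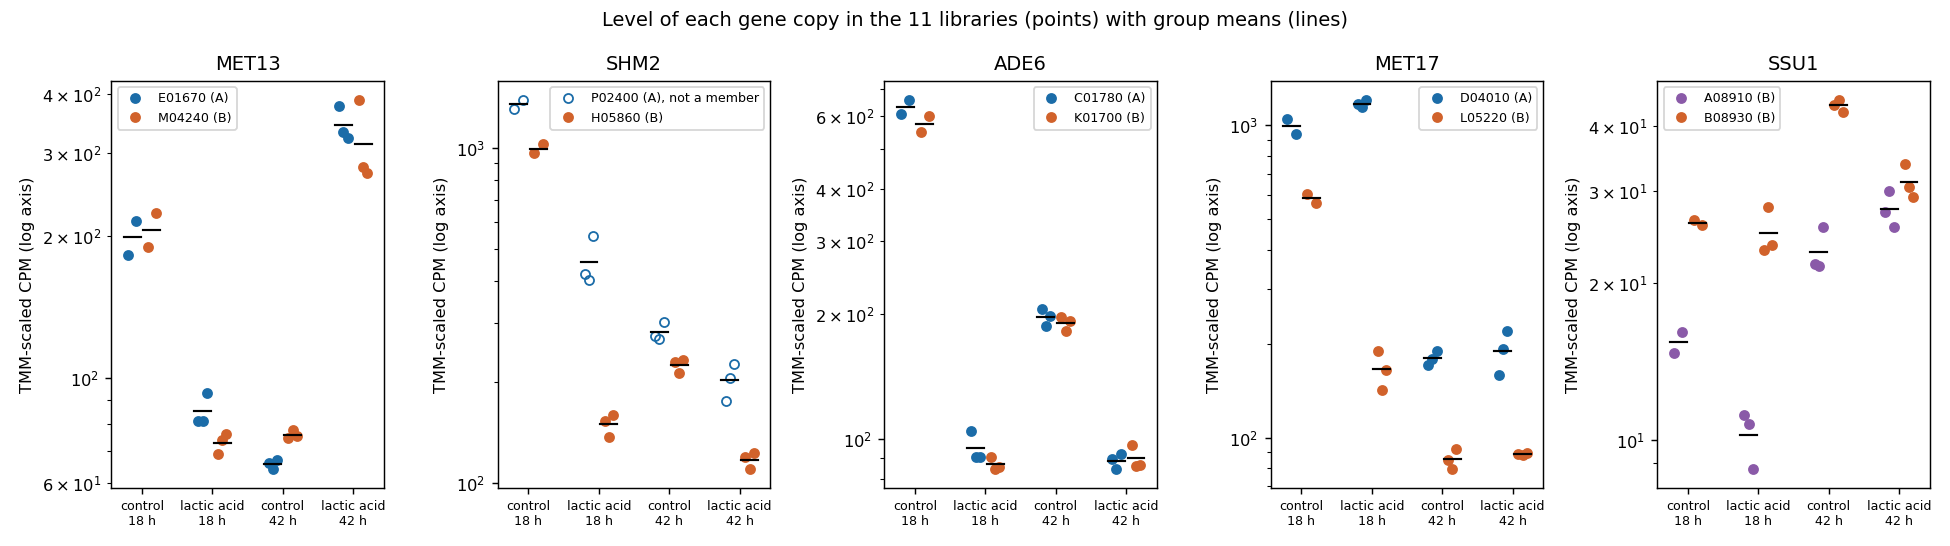
TMM-scaled CPM (log axis, each panel with its own range) of every gene copy in the 11 libraries, by locus and group. Points are libraries, lines are group means, and open points mark P02400_A, the A homeolog of SHM2, which is no member. Both MET13 genes are highest in lactic acid at 42 h, both ADE6 genes are highest in control at 18 h, and the copies of MET17 lie farthest apart in lactic acid at 18 h.

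MET13 was low in lactic acid at 18 h and high in lactic acid at 42 h, and both homeologs followed this course. E01670_A lies on chromosome 5 from base 325039 to base 326838 of assembly ASM198439v2 and M04240_B on chromosome 13 from base 826222 to base 828021, both with a coding length of 1800 bases. E01670_A stood at 183 and 216 CPM in control at 18 h and at 81.2, 81.1 and 93.2 CPM in lactic acid. At 42 h it stood at 66.0, 64.1 and 67.1 CPM in control and at 377, 333 and 323 CPM in lactic acid. At neither time did the libraries of the 2 conditions overlap, and their order was opposite. With lactic acid, E01670_A changed on the log2 scale by −1.23 ± 0.121 (SE) at 18 h and 2.39 ± 0.115 at 42 h.

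M04240_B stood at 189 and 224 CPM in control at 18 h and at 69.2, 73.7 and 76.0 CPM in lactic acid. At 42 h its levels were 74.6, 77.6 and 75.3 CPM in control and 390.1, 280.3 and 272 CPM in lactic acid. The conditions again did not overlap, and lactic acid replicate 1 at 42 h lay above the other two. For M04240_B the log2 fold change was −1.50 ± 0.153 at 18 h and 2.05 ± 0.144 at 42 h. Summed over both homeologs, MET13 went from 406 ± 47.5 CPM (SD, n = 2) in control to 158 ± 9.85 CPM (n = 3) in lactic acid at 18 h, and from 142 ± 0.969 to 659 ± 94.7 CPM (both n = 3) at 42 h, 4.65 times the control level.

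Over time, MET13 moved in opposite ways in the 2 conditions. From 18 h to 42 h the log2 change of E01670_A was −1.60 in control and 2.02 in lactic acid, and that of M04240_B was −1.45 and 2.11. The response at 42 h exceeded that at 18 h by 3.62 for E01670_A and by 3.55 for M04240_B on the log2 scale. With the trend of the response with coding length removed, the values at 18 h were −0.73 for E01670_A, short of the fold threshold, and −1.01 for M04240_B, and −0.71 and −0.99 with the replicate number also fitted as a block.

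**Figure D2:**
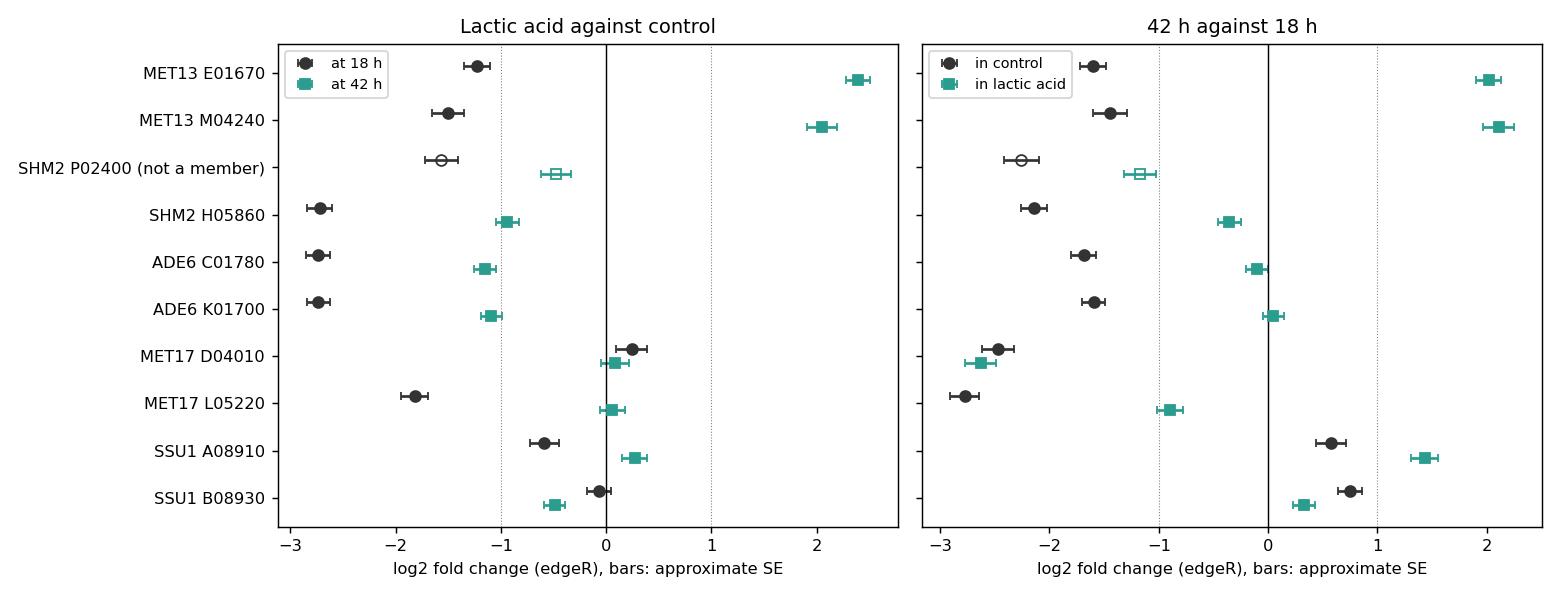
Log2 fold changes of each gene copy for lactic acid against control at 18 h and 42 h (left) and for 42 h against 18 h in each condition (right). Bars are the approximate SE of the edgeR fit, dotted lines mark an absolute log2 fold change of 1, and open symbols mark P02400_A. The MET13 genes alone among these copies cross from below −1 at 18 h to above 1 at 42 h.

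SHM2 was lower in lactic acid at 18 h, and more so in the B gene than in its A homeolog. H05860_B lies on chromosome 8 from base 1092268 to base 1093677 and P02400_A on chromosome 16 from base 465118 to base 466527, each with a coding length of 1410 bases. H05860_B stood at 963 and 1023 CPM in control at 18 h and at 154, 138 and 160.0 CPM in lactic acid. At 42 h it stood at 230.3, 214 and 232 CPM in control and at 119.7, 110.2 and 123 CPM in lactic acid. Every lactic acid library lay below every control library at each time, and the gap was wider at 18 h. The log2 fold change of H05860_B was −2.72 ± 0.119 at 18 h and −0.94 ± 0.107 at 42 h. The latter, short of the fold threshold, became −1.26 by library totals without TMM. Between the times its level changed by −2.14 on the log2 scale in control and by −0.35 in lactic acid.

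P02400_A, the A homeolog, is no member and its response was tested. Its levels at 18 h were 1304 and 1391 CPM in control and 421, 403 and 544 CPM in lactic acid, without overlap. At 42 h they were 275, 268 and 303 CPM in control and 177, 205 and 227 CPM in lactic acid, again without overlap. P02400_A was downregulated at 18 h, with a log2 fold change of −1.56 ± 0.159 and an adjusted p of 7.77e-06 by edgeR. At 42 h its log2 fold change was −0.48 ± 0.145 (adjusted p = 0.0137), under the fold threshold. The response differed between the times by 1.09 on the log2 scale, with an adjusted p of 0.0015 for the interaction. Its name is known here only from lists of changed genes of the same libraries, so its call is not independent evidence. Both genes together went from 2340.3 ± 103 CPM (SD, n = 2) to 606 ± 86.1 CPM (n = 3) at 18 h, and from 507 ± 26.8 to 321 ± 27.3 CPM (n = 3) at 42 h.

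ADE6 was lower in lactic acid at both times, in both homeologs and by close to the same amount. C01780_A lies on chromosome 3 from base 323195 to base 327256 and K01700_B on chromosome 11 from base 293328 to base 297389. C01780_A stood at 608 and 659 CPM in control at 18 h and at 104, 90.2 and 90.4 CPM in lactic acid. At 42 h it stood at 205, 187 and 198 CPM in control and at 89.2, 84.3 and 91.9 CPM in lactic acid. The conditions did not overlap at either time, while the lactic acid libraries of 18 h and 42 h did. Its log2 fold change was −2.74 ± 0.116 at 18 h and −1.15 ± 0.105 at 42 h.

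K01700_B stood at 549 and 603 CPM in control at 18 h and at 90.1, 84.5 and 85.3 CPM in lactic acid. Its levels at 42 h were 197, 182 and 192 CPM in control and 96.6, 85.7 and 86.4 CPM in lactic acid. Here too the conditions did not overlap and the lactic acid libraries of both times did. For K01700_B the log2 fold change was −2.73 ± 0.110 at 18 h and −1.09 ± 0.0997 at 42 h. Summed over both genes, ADE6 in lactic acid was at 0.1502 of the control level at 18 h and at 0.460 of it at 42 h.

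From 18 h to 42 h the log2 change in control was −1.69 in C01780_A and −1.60 in K01700_B. In lactic acid the corresponding values were −0.10 and 0.05, and the libraries of both times overlapped. With the trend of the response with coding length removed, these values became −0.73 and −0.59. The ADE6 genes are the longest members, with a coding length of 4062 bases. Once the same trend was removed, the log2 fold changes at 18 h were −1.81 for C01780_A and −1.80 for K01700_B. At 42 h they were −0.74 and −0.68, no longer past the fold threshold.

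At 18 h the B gene of MET17 was far lower in lactic acid while the A gene stayed near its control level, and at 42 h both genes stood near their control levels. D04010_A lies on chromosome 4 from base 810234 to base 811571, with a coding length of 1338 bases, and L05220_B on chromosome 12 from base 1040301 to base 1041632, with 1332 bases. D04010_A stood at 1047 and 940.2 CPM in control at 18 h and at 1168, 1146 and 1209.6 CPM in lactic acid. At 42 h it stood at 170.4, 179 and 189 CPM in control and at 159, 192 and 219 CPM in lactic acid. The conditions were close at 18 h, where the lactic acid libraries lay just above both control libraries, and overlapped at 42 h. The log2 fold change of D04010_A was 0.24 ± 0.148 at 18 h and 0.08 ± 0.133 at 42 h. The value at 18 h became 0.33 by DESeq2, and 0.46 both with the coding-length trend removed and by library totals without TMM. With all 12 libraries it was 0.63, still short of the fold threshold.

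L05220_B stood at 601 and 566 CPM in control at 18 h and at 189, 142 and 164 CPM in lactic acid. Its levels at 42 h were 84.5, 79.2 and 91.7 CPM in control and 88.6, 88.0 and 89.1 CPM in lactic acid. The conditions lay apart at 18 h and overlapped at 42 h, where the lactic acid libraries fell inside the control range. Its log2 fold change was −1.82 ± 0.129 at the first time and 0.06 ± 0.118 at the second. The small values at 42 h turn sign with the scaling, and by library totals without TMM they were −0.24 for D04010_A and −0.27 for L05220_B.

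From 18 h to 42 h the log2 change in control was −2.47 in D04010_A and −2.78 in L05220_B. In lactic acid it was −2.63 in D04010_A and −0.90 in L05220_B, whose level had already been low at 18 h. The last value became −1.05 with the coding-length trend removed and −1.20 by library totals without TMM. The sum of both genes went from 1577 ± 100.2 CPM (SD, n = 2) to 265 ± 14.3 CPM (n = 3) in control and from 1339.8 ± 45.1 to 279 ± 30.0 CPM (both n = 3) in lactic acid. Between the conditions at 18 h this sum differed by a factor of 0.850.

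SSU1 was the weakest locus, and its copies are both of B origin. A08910_B lies on chromosome 1 from base 1799545 to base 1800921 and B08930_B on chromosome 2 from base 1701132 to base 1702508, both with a coding length of 1377 bases. Reads that fit both copies equally were discarded by the authors, so each copy was measured only through reads that fit it best, and the split between the copies is uncertain. A08910_B stood at 14.6 and 16.1 CPM in control at 18 h and at 11.1, 10.7 and 8.77 CPM in lactic acid. At 42 h it stood at 21.7, 21.5 and 25.5 CPM in control and at 27.3, 30.0 and 25.6 CPM in lactic acid. At 18 h the lactic acid libraries lay below the control libraries, and at 42 h they lay above them by a margin far smaller than the spread within either group. The log2 fold change of A08910_B was −0.59 ± 0.138 at 18 h and 0.27 ± 0.118 at 42 h, and the latter became −0.06 by library totals without TMM.

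B08930_B stood at 26.4 and 25.8 CPM in control at 18 h and at 23.1, 27.9 and 23.6 CPM in lactic acid. Its levels at 42 h were 43.9, 44.9 and 42.6 CPM in control and 33.7, 30.5 and 29.3 CPM in lactic acid. The conditions overlapped at 18 h and lay apart at 42 h, with lactic acid lower. For B08930_B the log2 fold change was −0.07 ± 0.110 at 18 h, which became 0.15 by library totals without TMM, and −0.49 ± 0.0976 at 42 h. Both copies were higher at 42 h than at 18 h, by 0.57 and 0.75 on the log2 scale in control and by 1.43 and 0.33 in lactic acid, for A08910_B and B08930_B in that order. By library totals without TMM, the value of 0.33 became 0.02. The sum of both went from 41.4 to 66.7 CPM in control and from 35.1 to 58.8 CPM in lactic acid between 18 h and 42 h, without overlap between the times.

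The balance of the A:B pairs was taken as log2 of A over B per coding length in each library, and compared with 2790 pairs with enough counts. In control at 18 h it was 0.76 ± 0.108 (SE) for MET17, 0.44 ± 0.0927 for SHM2, 0.14 ± 0.0624 for ADE6 and −0.05 ± 0.0778 for MET13. In control at 42 h it was 1.07 ± 0.0886 for MET17, 0.32 ± 0.0757 for SHM2, 0.05 ± 0.0509 for ADE6 and −0.21 ± 0.0635 for MET13. MET17 and SHM2 were thus tilted toward the A gene in every control library. By their means ADE6 and MET13 lay nearer to balance, although every control library leaned toward A for ADE6 and toward B for MET13. The median distance from balance over all pairs was 0.222 at 18 h and 0.262 at 42 h. MET17 was farther from balance than 93.7% of the pairs at 18 h and 95.6% at 42 h, and SHM2 than 77.9% and 57.7%.

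**Figure D3:**
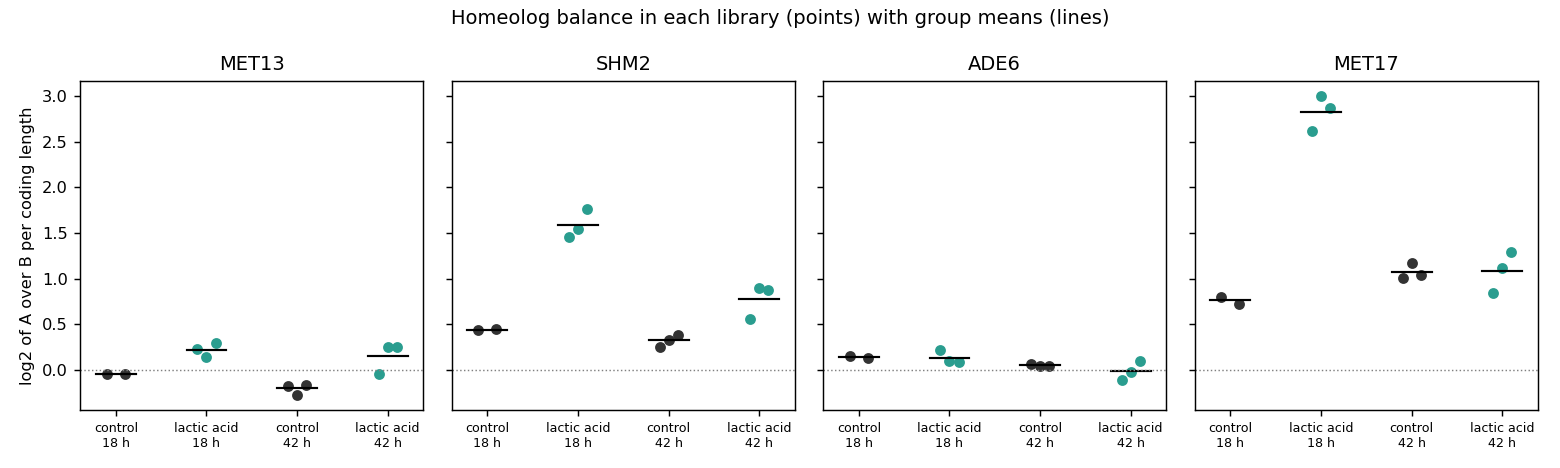
Log2 of A over B per coding length in each of the 11 libraries for the 4 loci with an A and a B gene (the SHM2 pair includes P02400_A). Points are libraries, black for control and green for lactic acid, lines are group means and the dotted line is balance. In lactic acid at 18 h the libraries of MET17 and SHM2 lie well above those of all other groups, and ADE6 stays near 0 in every group.

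In lactic acid at 18 h the A gene of MET17 gave 86.0 to 88.9% of the locus's transcripts per coding length, against 62.3 and 63.4% in the control libraries, a shift of 2.07 ± 0.140 on the log2 scale of A over B. For SHM2 the share of P02400_A was 73.2 to 77.3% against 57.5 and 57.6%, a shift of 1.15 ± 0.1197. The groups did not overlap at either locus. The corresponding shift was 0.27 ± 0.1004 for MET13 and −0.01 ± 0.0805 for ADE6, where the median absolute shift over all pairs was 0.235. At 42 h the shift was 0.01 ± 0.125 for MET17, 0.46 ± 0.107 for SHM2, 0.35 ± 0.0898 for MET13 and −0.06 ± 0.0720 for ADE6. Both MET17 groups at 42 h overlapped, at 66.7 to 69.2% in control and 64.1 to 71.0% in lactic acid. For the SSU1 copies, A08910_B gave 27.2 to 32.5% of the counts of both in lactic acid at 18 h and 44.8 to 49.5% at 42 h, against 35.7 to 38.4% and 32.4 to 37.5% in control.

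Compared per coding length, as RPKM, which is CPM divided by the coding length in kilobases, the members spanned a wide range of levels. In control at 18 h the group means were 743 RPKM for MET17 D04010_A, 704 for SHM2 H05860_B and 438 for MET17 L05220_B. They were 156 and 142 RPKM for the ADE6 genes C01780_A and K01700_B, 111 and 115 for the MET13 genes E01670_A and M04240_B, and 11.2 and 18.9 for the SSU1 genes A08910_B and B08930_B. D04010_A was above 97.3% of the 9670 genes with a known length in control at 18 h and A08910_B above 15%. In lactic acid at 42 h, the MET13 genes at 191 and 175 RPKM were the highest members, and the ADE6 genes stood at 21.8 and 22.0 RPKM, close to the SSU1 genes at 20.1 and 22.6.

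Within each gene, the group order differed between the loci. In all 9 members the highest group did not overlap the next. How often this holds over all genes was not counted, so nothing is read from it. These groups were lactic acid at 42 h over control at 18 h for MET13, and control at 18 h over control at 42 h for ADE6. The neighbours that overlapped were control at 42 h and lactic acid at 18 h in M04240_B, and the lactic acid groups of both times in C01780_A and K01700_B. Both groups at 42 h overlapped in D04010_A and L05220_B, and both groups at 18 h in B08930_B. No neighbouring groups overlapped in E01670_A, H05860_B and A08910_B.

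Other genes of these routes were taken from lists of S. cerevisiae gene names, and 36 of them could be named from the part of the annotation at hand or as homeologs of its genes. They are called named by position, since that part was set by chromosome and not by any response. At 18 h, 10 of the 36 were downregulated in lactic acid and 0 upregulated by edgeR, 27.8% downward where 20.7% of all genes were. DESeq2 and limma-voom also called 0 upward, and 7 of the 36 had an unadjusted p under 0.05 in that direction. At 42 h, 4 were upregulated and 3 downregulated, 11.1% and 8.33% where all genes gave 7.05% and 9.9%. The response at 42 h exceeded that at 18 h in 7 genes and fell short of it in 0 by edgeR, DESeq2 and limma-voom, with 7 at an unadjusted p under 0.05 in the latter direction, where 15.5% and 9.24% of all genes were called. In control, 21 of the 36 fell from 18 h to 42 h, 58.3% where 18.9% of all genes fell, and 0 rose by any of the 3 tools, with 1 at an unadjusted p under 0.05. In either direction, 24.8% of all genes were called for the difference between the responses and 34.5% for time in control. By an adjusted p under 0.05 alone, 7 of the 36 were higher and 14 lower at 18 h, where 35.5% and 35.2% of all genes were, and 12 were higher and 14 lower at 42 h, where 28.2% and 33.2% were. On the same basis 16 had a higher and 6 a lower response at 42 h than at 18 h, where 28.9% and 24.9% of all genes did, and 1 rose and 30 fell over time in control, where 31.2% and 39.1% did. The interaction shares its libraries with the responses at both times, and the change over time in control shares the control libraries with them.

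A further 28 list genes are named only in lists of genes that were changed in these same libraries, so their calls are not independent evidence of a direction. Of these, 22 were downregulated and 0 upregulated at 18 h, while 2 were upregulated and 3 downregulated at 42 h. They are described with this limit and kept out of the counts over the 36 genes.

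**Figure D4:**
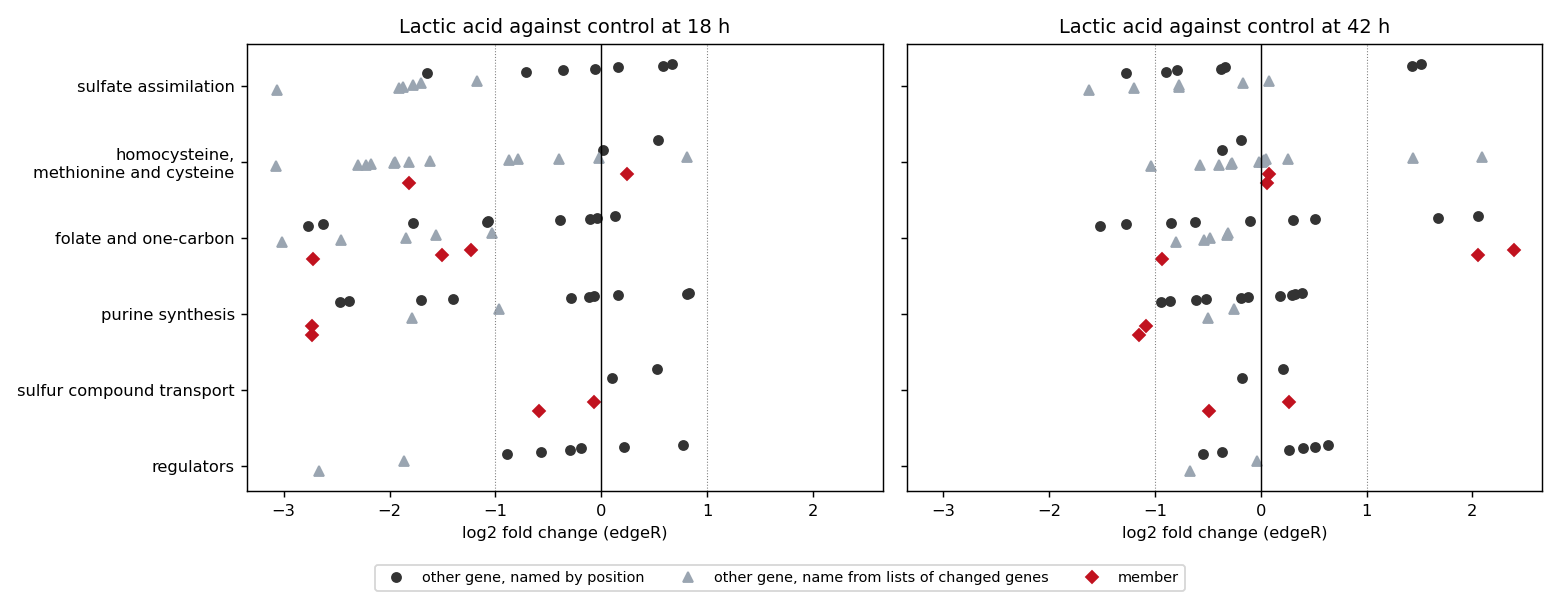
Log2 fold change (edgeR) of lactic acid against control at 18 h (left) and 42 h (right) for the genes of the 6 lists. Black circles are genes named by position, grey triangles are genes named only in lists of changed genes, red diamonds are the 9 members, and dotted lines mark an absolute log2 fold change of 1. Every list but that of sulfur compound transport holds genes below −2 at 18 h, and none of the genes shown lies above 1 at 18 h.

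In the folate and one-carbon list, 5 of 9 genes named by position were downregulated at 18 h and 0 upregulated, with a median log2 fold change of −1.07. The largest changes were in GCV2, a subunit of the glycine cleavage complex that feeds carbon into folate. GCV2 A03520 went from 660 ± 34.0 CPM (SD, n = 2) to 96.8 ± 15.9 CPM (n = 3), a log2 fold change of −2.77 ± 0.161 (edgeR adjusted p = 1.28e-07), and GCV2 E05370 changed by −2.63 ± 0.215 (adjusted p = 1.61e-06). GCV1 J02220, another subunit of that complex and named from changed genes, fell by 3.02 ± 0.162 (adjusted p = 8.2e-08). At 42 h, 2 genes of the list were upregulated and 2 downregulated. The upregulated genes were those of FAU1, a 5,10-methenyltetrahydrofolate synthetase, at 2.05 ± 0.230 for A09930 (adjusted p = 1.94e-05) and 1.67 ± 0.176 for B09880 (adjusted p = 1.24e-05). FAU1 A09930 stood at 8.84 ± 1.73 CPM in control at 42 h and at 36.8 ± 11.2 CPM in lactic acid (n = 3). At 18 h FAU1 A09930 stood at 43.9 ± 9.67 CPM in control (n = 2) and at 33.5 ± 3.62 CPM in lactic acid (n = 3). From 18 h to 42 h the mean of FAU1 B09880 went from 65.6 to 13.3 CPM in control and from 60.9 to 42.4 CPM in lactic acid. The log2 change over time in control was −2.30 in both FAU1 genes. The downregulated genes were those of DFR1, the dihydrofolate reductase, at −1.52 ± 0.211 for B05770 (adjusted p = 9.01e-05) and −1.28 ± 0.218 for H04220 (adjusted p = 0.000368). Both DFR1 genes were also downregulated at 18 h, B05770 by −1.78 ± 0.205 (edgeR adjusted p = 1.95e-05) and H04220 by −1.07 ± 0.196 (adjusted p = 0.000506).

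In the purine list, 4 of 10 genes named by position were downregulated at 18 h, and 0 of 10 were called in either direction at 42 h, where 2 were higher and 4 lower at an adjusted p under 0.05 alone. ADE16/ADE17 A01010, for a late step of the purine ring, changed by −2.47 ± 0.138 at 18 h (edgeR adjusted p = 1.01e-07). ADE2 A09330, for phosphoribosylaminoimidazole carboxylase, changed by −2.38 ± 0.143 (adjusted p = 1.71e-07), from 321 ± 2.06 CPM in control to 61.6 ± 3.15 CPM in lactic acid. ADE4 F01220, for the first committed step and named from changed genes, changed by −1.78 ± 0.104 (adjusted p = 1.31e-07). In control, 6 of the 10 fell from 18 h to 42 h and 0 rose, and the median log2 change was −1.27.

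In the sulfate assimilation list, 1 of 7 genes named by position was downregulated at 18 h and 0 upregulated, and at 42 h 2 were upregulated and 1 downregulated. The upregulated genes at 42 h were those of MET22, a phosphatase that clears a by-product of sulfate reduction, at 1.51 ± 0.140 for C04560 (edgeR adjusted p = 5.28e-06) and 1.43 ± 0.108 for A06070 (adjusted p = 1.45e-06). MET22 C04560 stood at 54.0 ± 4.86 CPM in control and at 154 ± 29.2 CPM in lactic acid (n = 3). MET1 B07470, an enzyme for the siroheme cofactor of sulfite reductase, was downregulated at 42 h by −1.27 ± 0.101 (adjusted p = 2.05e-06). Among the genes named from changed genes, MET3 C05840, for ATP sulfurylase, changed by −3.06 ± 0.143 at 18 h (adjusted p = 5.42e-08), and MET10 E06170 and MET10 H01030, for a subunit of sulfite reductase, by −1.91 ± 0.138 (adjusted p = 6.52e-07) and −1.88 ± 0.143 (adjusted p = 9.71e-07). MET8 M04070 and MET8 E01500, also for siroheme, were downregulated at 42 h by −1.62 ± 0.218 (adjusted p = 7.05e-05) and −1.20 ± 0.164 (adjusted p = 7.77e-05). In the same order they were already downregulated at 18 h, by −1.70 ± 0.230 (edgeR adjusted p = 6.07e-05) and −1.17 ± 0.181 (adjusted p = 0.000157).

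The list for homocysteine, methionine and cysteine held 2 genes named by position, both of CYS4, and neither was called at either time. By an adjusted p under 0.05 alone, 1 of them was higher and 0 lower at 18 h, and 0 were higher and 1 lower at 42 h. Of the 13 named from changed genes, 8 were downregulated at 18 h. HOM2 J00610, for aspartate semialdehyde dehydrogenase, changed by −3.07 ± 0.212 (edgeR adjusted p = 5.03e-07), SAH1 K04460, for S-adenosylhomocysteine hydrolase, by −2.30 ± 0.132 (adjusted p = 1.18e-07), and SAM2/SAM1 G00840, for S-adenosylmethionine synthetase, by −2.23 ± 0.174 (adjusted p = 1.16e-06). The other homeolog SAM2/SAM1 P00790, chosen after its values were seen, changed by −0.39 ± 0.174 (adjusted p = 0.0603). At 42 h, STR3 O03490 and STR3 I03520, for cystathionine beta-lyase, were upregulated by 2.09 ± 0.234 (adjusted p = 1.94e-05) and 1.43 ± 0.180 (adjusted p = 4.22e-05). MET6 I04930, the methionine synthase that takes its methyl group from the product of Met13, was downregulated at both times. It changed by −1.96 ± 0.172 at 18 h (edgeR adjusted p = 2.68e-06) and by −1.03 ± 0.157 at 42 h (adjusted p = 0.000166). The call at 42 h was lost in 7 alternative settings, among them DESeq2, where the value was −0.99.

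Neither of 2 transport genes named by position, both of MUP3, and none of 6 regulator genes met the thresholds at 18 h or 42 h. By an adjusted p under 0.05 alone, 1 transport gene was higher and 0 lower at 18 h, and 0 were either at 42 h. On the same basis 1 regulator gene was higher and 2 lower at 18 h, and 4 were higher and 0 lower at 42 h. The median log2 fold change of the 6 regulator genes at 18 h was −0.24. CBF1 L00170 and CBF1 E00520, for a DNA-binding factor of methionine synthesis genes and named from changed genes, were downregulated at 18 h by −2.66 ± 0.271 (edgeR adjusted p = 7.66e-06) and −1.86 ± 0.246 (adjusted p = 5.05e-05). MET32/MET31 B06310 and MET32/MET31 H03680, for zinc finger regulators of the same genes and also chosen after their values were seen, had log2 fold changes of 0.21 and 0.78 at 18 h. Their edgeR adjusted p was 0.199 and 0.000689 in that order.

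The genes most like each locus were found by comparing the 4 group means of log2 CPM, each centred on its own mean, over 9196 genes. The distance is the root mean square difference on the log2 scale, and it is a description over 4 points. Nearest to MET13 were F01550 (GND2/GND1, 0.278), B05160 (FRD1/OSM1, 0.323) and I00810 (0.341). Nearest to ADE6 were A07280 (SCP160, 0.0287), L05250 (TIF4632/TIF4631, 0.0888) and P00560 (SRO9/SLF1, 0.118), and nearest to SHM2, by its member H05860_B, were N02790 (PSA1, 0.0572), D03210 (PDC1, 0.0698) and F01930 (PDC1, 0.0767). The mean of both SSU1 copies was followed most closely by M01630 (0.0171), E06940 (0.0211) and E02130 (SPT2, 0.0234). For MET17, whose genes differ at 18 h, the mean of both was nearest to A08180 (OYE2, 0.0987), A09820 (0.110) and F00650 (0.129). MET13 thus had no gene as close as those found for the other 4 loci.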

How the data were processed

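The authors aligned the reads to the genome of the same strain with Bowtie 1.1.2, allowing no mismatch, and made gene counts in HTSeq 0.6.0, discarding reads with more than 1 best place. The deposited full table holds raw counts per gene. The authors' normalized table holds the signal as CPM with TMM factors from edgeR 3.18.1. HTSeq ran with its default parameters, which count by strand, and whether the library protocol kept strand is not given in the sources used here. The tables of duplicated genes hold no member and were not used. The authors' own fold changes and p-values, in their supplementary tables, were not used. No per-sample column was left unmapped.

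Here the counts were analysed with edgeR 4.0.16, DESeq2 1.42.0 and limma 3.58.1 under R 4.3.3. Control replicate 2 at 18 h was left out, as the authors did. Pseudogene and plasmid entries, 14 in number, were also left out, with 0.0575 to 0.344% of the counts. Requiring 1 CPM in at least 3 libraries of either condition kept 9683 genes, and CPM values recomputed from the counts were checked against the authors' values (largest relative difference 5e-15). The main test, two-sided, was the quasi-likelihood test of edgeR with TMM factors and 1 mean per group, and p-values were adjusted by Benjamini-Hochberg over all genes kept. Homeolog balance was fitted with limma on log2 of A over B after adding 0.5 counts, with at least 10 counts per pair. A test of this balance in control had been planned, but the control libraries also enter the contrasts known when the members were chosen, so the estimates are given without p-values. On simulated counts for the contrast at 18 h with 9683 genes, edgeR called 50.75% of genes with a log2 change of 1 and 98.51% with 2, and 3 of 9483 unchanged genes. For the contrast at 42 h these shares were 38.81% and 100%, with 1 of 9483 unchanged genes called. A change of 1 lies at the fold threshold itself, so its share is no measure of sensitivity.

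The members and the gene lists were chosen with earlier results of these data known. S. cerevisiae names came from 1994 annotation rows at hand and the homeologs they list. The genes named are the 9 members, the remaining homeolog of SHM2, up to 3 genes per list, time and direction with the largest called change and a group mean of at least 10 CPM, and the 3 genes most like each locus. The genes SAM2/SAM1 P00790, MET32/MET31 B06310 and MET32/MET31 H03680, and those of CYS4 and MUP3 named without values, fall outside this rule. Alternatives were DESeq2, limma-voom, other scalings, no filter, all 12 libraries, leaving out each library, the replicate number as a block, removal of the trend with coding length (spline with 5 degrees of freedom), calls by adjusted p alone, the added list genes and, for the pairs, a pseudocount of 1, a minimum of 20 counts and shares. Intervals from counting were not used, since errors come from the libraries.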

Additional observations from a re-analysis of the deposited data

Results flagged for a closer look

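The lactic acid responses of 3 members were opposite at the 2 times in every library. The response at 42 h exceeded that at 18 h by 3.62 on the log2 scale in MET13 E01670, by 3.55 in MET13 M04240 and by 0.86 in SSU1 A08910. These differences were not tested, because the members were chosen with their responses known, and the value of A08910 at 42 h turns sign by library totals without TMM.

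The following genes outside the members, among those named, passed an adjusted p of 0.05 with a log2 difference of at least 1 in edgeR's interaction test, and each had the higher response at 42 h. Other named genes did not, among them MET1 B07470, whose response was lower at 42 h by a log2 difference of −0.92 (edgeR adjusted p = 0.000353). The log2 difference was 2.89 in MET3 C05840, 1.14 in MET10 E06170 and 1.11 in MET10 H01030. It was 2.50 in HOM2 J00610, 2.31 in SAH1 K04460, 2.21 in SAM2/SAM1 G00840, 1.28 in STR3 O03490 and 1.46 in STR3 I03520. In the folate list it was 2.48 in GCV1 J02220, 2.15 in GCV2 A03520, 1.78 in GCV2 E05370, 2.44 in FAU1 A09930, 1.78 in FAU1 B09880 and 1.09 in SHM2 P02400. In the purine list it was 1.53 in ADE16/ADE17 A01010, 1.77 in ADE2 A09330 and 1.53 in ADE4 F01220, and among the regulators 1.999 in CBF1 L00170 and 1.83 in CBF1 E00520. All these differences are signed. Among these genes only those of STR3 and FAU1 were upregulated at 42 h. The others had decreased at 18 h, and at 42 h did so less or not at all. Apart from SHM2 P02400, the listed genes were named for large called changes at 18 h or 42 h in these same libraries. That choice bears on the sign of the difference, so nothing is read from the shared direction. Only the genes of GCV2, FAU1, ADE2 and ADE16/ADE17 among them are named by position, and the rest only from lists of changed genes. No group had enough libraries for a check of single outlying values.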

How the results depend on the processing

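No result named here with a call changed its direction under any alternative, and of the 21 member fold changes of an absolute log2 of at least 1 none turned sign. Of the 720 alternative values of the member fold changes, 132 moved beyond the replicate SD, and 14 of the smaller ones turned sign. By library totals without TMM, 2 list genes were called higher and 8 lower in lactic acid at 18 h and 42 h respectively, and 6 had a lower response at 42 h than at 18 h. This scaling moved the median over all genes from 0.07 to 0.285 at 18 h and from −0.06 to −0.386 at 42 h, and the calls from 412 higher and 2000 lower to 1041 and 1612 at 18 h, and from 683 and 959 to 340 and 1893 at 42 h. With all 12 libraries, 2 were higher at 18 h and 1 had a lower response at 42 h, the median of all genes at 18 h was 0.266, and 980 were higher and 1625 lower at 18 h. With the trend of coding length removed, 701 genes were higher and 1240 lower at 18 h, 2 list genes had a lower response at 42 h than at 18 h, and 2 members in place of 4 kept an absolute log2 fold change of 1 at 42 h. By adjusted p alone, 7 were higher at 18 h, 12 higher and 14 lower at 42 h, 16 and 6 differed upward and downward between the responses, and 1 rose in control. With the 28 genes named only from changed genes added, the counts were 32 lower at 18 h, 6 lower at 42 h, 27 with a higher response at 42 h, and 2 higher and 36 lower over time in control.

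Leaving out 1 library at a time gave 9 to 11 list genes lower at 18 h, 3 to 4 lower at 42 h, 7 to 9 with a higher response at 42 h and 19 to 21 lower over time in control. The MET13 balance in control at 42 h ranged from −0.23 to −0.17, nearest to 0 without control replicate 2 at 42 h. Deviations of same-numbered libraries from their group means correlated at −0.219 to 0.304, over 0.1 in 7 of 15 pairs. Within such small groups the deviations are tied to each other, so whether the numbers pair the samples could not be decided. With the replicate block, 10 list genes were lower at 18 h, and at 42 h the counts were 4 upward and 3 downward, as without it. With the block and the coding-length trend removed, 1 had a lower response at 42 h, and the members with an absolute log2 fold change of 1 numbered 4 in place of 6 at 18 h and 2 in place of 4 at 42 h. Depth limits SSU1 A08910 most, whose lowest count in a library was 113.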
